A study of Mus musculus with 20 samples.

Results

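RNA-seq of cultured mouse neural stem cells (NSCs) after knockdown (KD) of Setd8 was examined, gene by gene and pathway by pathway. Of the 6 samples labelled for this experiment, in a series of 20 samples, 4 hold expression values, for 24062 listed genes each. A gene was tested when its level reached at least 1 TPM, a level per length of transcript that sums to the same total in each library, in 3 or more of the 4 libraries, which left 12488 genes. The cells came from mouse embryonic cortex per the study's methods, although the labels give the hippocampus as tissue, and they had been passaged many times in basic fibroblast growth factor and epidermal growth factor. Their strain is not given in the sources used here. Both groups were infected with a lentivirus whose plasmid gives GFP and puromycin resistance, with a short hairpin RNA against Setd8 in KD and a scrambled hairpin in Ctrl, were selected with puromycin, and were collected 3 days after infection per the labels. The study's table of these values gives 2 days instead.

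The group of each library was taken from the study's table of epigenetic genes, because the labels are displaced against the values. The libraries labelled Ctrl_1 and Ctrl_2 hold the gene symbols and the gene lengths. The library labelled Ctrl_3 equals the first Ctrl column of that table in 170 of 170 genes compared, the libraries labelled Setd8KD_1 and Setd8KD_2 equal the other two Ctrl columns in order, and the library labelled Setd8KD_3 equals its first Setd8KD column. These 4 libraries are called Ctrl 1, Ctrl 2, Ctrl 3 and the KD library here, and each holds between 20040058 and 21493328 reads. The KD group therefore has 1 library. Every test below is limma on log2(TPM + 1) with Benjamini-Hochberg adjustment over all genes tested, the spread comes from the 3 Ctrl libraries alone, and the KD library was assumed to vary like them. Nothing says that the 3 Ctrl libraries came from separate cultures, so the p-values measure only the spread between these libraries. The file names point to 1 of the study's 2 hairpins, so effects of the hairpin and of Setd8 loss cannot be told apart.

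Setd8 encodes the enzyme that places a single methyl group on lysine 20 of histone H4. This mark rises and falls with the cell cycle and is needed for chromosome compaction and genome stability in dividing cells. NSCs are the self-renewing cells that give rise to neurons, astrocytes and oligodendrocytes, and in culture they are held in division by growth factors. Setd8 (Kmt5a in RefSeq, chr5:124439930-124462311, GRCm38) was at 154 TPM in Ctrl 1, 143 in Ctrl 2, 143 in Ctrl 3 and 36.4 in the KD library. The KD library was below all 3 Ctrl libraries, at 24.8% of their mean of 146.8 ± 6.38 TPM (SD, n = 3), with a log2 difference of -1.98 ± 0.07 (SE, limma adjusted p = 5.05e-05).

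The cells expressed NSC genes in every library. Sox2, a stem cell transcription factor, was at 226 to 251 TPM in Ctrl and 245 in KD, and Fabp7, a lipid carrier of radial glia, at 5857 to 6013 in Ctrl and 4870 in KD. Lhx2, a forebrain factor, was present at 47.9 to 52.9 TPM in Ctrl, whereas Emx1, a cortical factor, had no reads in any library. Gbx2 (21.1 to 23.1 TPM in Ctrl, 33.8 in KD) and En2 (5.13 to 5.92 in Ctrl, 5.61 in KD), factors of the midbrain and hindbrain, were present as well and were not called, and Irx3, another patterning factor, rose from 3.93 to 4.6 TPM in Ctrl to 7.2. In all, 14 of 73 regional factors were tested, of which 1 rose, or 2 without Ctrl 2 or Ctrl 3, and 1 fell. The oligodendrocyte lineage factors Olig1 and Olig2 were among the high genes, at 2370 to 2548 and 1260 to 1340 TPM in Ctrl. Of 22 NSC and radial glia markers 21 were tested, 1 rose (Msi1, an RNA-binding protein, 25.3 to 26.9 TPM in Ctrl and 40.1 in KD) and 1 fell (Pax6, a progenitor transcription factor, 22.4 to 24.4 in Ctrl and 14.4 in KD). Without Ctrl 1 or without Ctrl 3, 2 of these markers fell. In bulk RNA, fewer cells of a type and less RNA per cell cannot be told apart. Nes, the intermediate filament gene that names these cells, was at 191 to 236 TPM in Ctrl and 150 in KD and was not called. None of 12 microglia genes reached the filter, and their highest value in any library was 0.518 TPM, with no read of Cx3cr1 or Aif1. The 8 endothelial genes summed to 2.47 to 3.71 TPM in Ctrl and 4.81 in KD, and the 12 mural and fibroblast genes to 9.8 to 10.99 in Ctrl and 12.5 in KD. Cldn5 had no read in KD and Pdgfrb no read in Ctrl. Emcn, the 1 endothelial gene tested, passed the filter only with the KD library and was at 0.8 to 1.13 TPM in Ctrl and 2.64 in KD. Acta2 (5.99 to 6.72 TPM in Ctrl and 6.39 in KD) and Tagln (2.64 to 3.93 in Ctrl and 4.79 in KD), the mural genes tested, were not called.

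In the KD library 807 genes rose and 1050 fell, where a gene counts as called at an adjusted p under 0.05 and at least 1.5-fold on the log2(TPM + 1) scale. These are 6.46% and 8.41% of the genes tested, and the share of a gene list called in each direction is read against these 2 values below. Called genes were picked for their difference, so a KD value outside the Ctrl range, given for many of them below, describes the values only. It adds no support to a call. The median log2 difference over all genes tested was -0.0002. Pairs of Ctrl libraries differed by at least 1.5-fold in 1.36% to 1.75% of genes, and the KD library differed from single Ctrl libraries in 16.2% to 17.0%. When the libraries were grouped by their labels instead, limma called 0 genes, with 87 at an unadjusted p under 0.05. The replication and mitosis genes of the cell cycle lay almost entirely on the falling side, with 38 of 48 and 56 of 61 called lower, and 6 of 161 tested genes on the study's list of epigenetic genes rose and 13 fell. The study took that epigenetic list from earlier work. What follows concerns the other lists, of which nucleotide synthesis shares Tk1, Tyms and Rrm2 among others with the replication list and the p53 targets share Cdkn1a with the CDK inhibitors. Of the genes tested, 168 passed the filter only with the help of the KD library and 29 of them were called higher, and 128 passed through the Ctrl libraries alone and 65 of them were called lower. The filter favours a difference in that direction in such genes, so their calls are no support for a list. The counts and shares of the lists below still include them, and the text says where such members were called. Among the 12192 genes with at least 1 TPM in all 4 libraries 778 rose (6.38%) and 985 fell (8.08%).

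**Figure D1:**
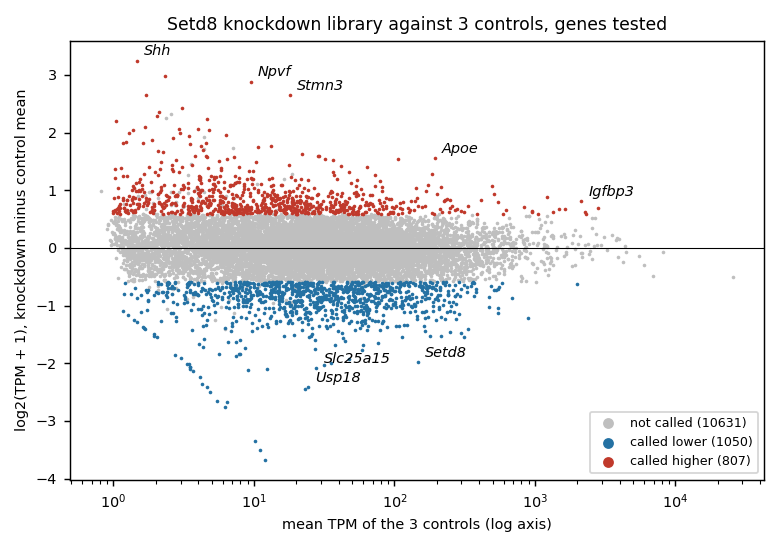
Each point is 1 of the 12488 genes tested, with the mean TPM of the 3 Ctrl libraries on a log axis and the difference in log2(TPM + 1) between the KD library and the Ctrl mean on the other axis. Red points rose (807) and blue points fell (1050), and the line of blue points at the lower left holds genes with no read in the KD library.

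Shh, the secreted ligand of the Hedgehog pathway, had the largest rise of all called genes. Hedgehog ligands bind the receptor Ptch1, which otherwise holds back Smo, and the signal ends in the Gli transcription factors, of which Gli1 and Ptch1 are also classical targets. Shh (chr5:28456840-28467101) was at 1.32, 1.49 and 1.62 TPM in Ctrl 1, Ctrl 2 and Ctrl 3 and at 22.5 in the KD library, on 31 reads in Ctrl 1 and 529 in KD. Its TPM in KD was 15.2-fold the Ctrl mean, with a log2 difference of 3.25 ± 0.15 (limma adjusted p = 5.05e-05). Ptch1 rose as well, from 27.7, 32.1 and 30.0 TPM to 51.4, a 1.72-fold difference in TPM, and this call was lost with no filter on low values. Those were the only calls among 11 tested members, 18.2% against 6.46% of all genes. Smo was at 71.5 to 77.4 TPM in Ctrl and 73.6 in KD, and Gas1, a co-receptor with the highest Ctrl level of the list, at 183 to 210 and 159. Gli1 did not pass the filter, with 0.248, 0.331 and 0.192 TPM in Ctrl and 0.991 in KD.

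The 12 largest rises with at least 5 TPM in the higher group, outside the cell cycle and epigenetic lists, were Shh, Npvf, Stmn3, Mapk8ip2, Tmem198, Cplx1, Gdap1l1 and Lipg together with 4 microRNA entries. Npvf, the precursor of a hypothalamic neuropeptide, was at 10.2, 9.12 and 9.07 TPM in Ctrl and 76.2 in KD, an 8.05-fold difference. Stmn3, a neuronal regulator of microtubules, was at 16.9, 20.3 and 16.5 TPM in Ctrl and 117 in KD, and Mapk8ip2, a neuronal scaffold of the JNK pathway, at 1.76, 1.83 and 1.49 in Ctrl and 15.8 in KD. For each of these genes the KD library was far outside the Ctrl range. Cplx1, which controls synaptic vesicle fusion, rose 7.08-fold, Gdap1l1 6.82-fold, the transmembrane protein gene Tmem198 6.82-fold, and Lipg, an endothelial lipase, 5.48-fold. Mir7009, Mir7068, Mir9-1 and Mir5126 are entries of 64 to 89 bases that rest on 0 to 11 reads per library, so their levels are poorly measured. Mir7009 and Mir9-1 had 0 reads in Ctrl 3, and Mir7068 had 0 in Ctrl 1. Mir7009, Mir9-1 and Mir7068 therefore passed the filter only with the KD library.

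Leaving out entries under 200 bases, a choice made after the values were seen, the next rises were Ckmt1, Ptprn, Mfsd7c and Ankrd34c, followed by Scn3b. Ptprn, a protein of dense-core secretory granules, was at 1.38, 1.46 and 1.26 TPM in Ctrl and 8.72 in KD. Further down the same order came Chga, which encodes the granule protein chromogranin A, at 4.03, 4.44 and 5.15 TPM in Ctrl and 18.4 in KD. Ass1 and Gm5424 also stood in this order (1.01 to 1.29 and 1.06 to 1.36 TPM in Ctrl, 6.6 and 6.94 in KD), but the values of this pair are proportional between libraries, on 95 reads each in KD, and cannot be told apart. All the genes named in this paragraph were called higher.

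**Figure D2:**
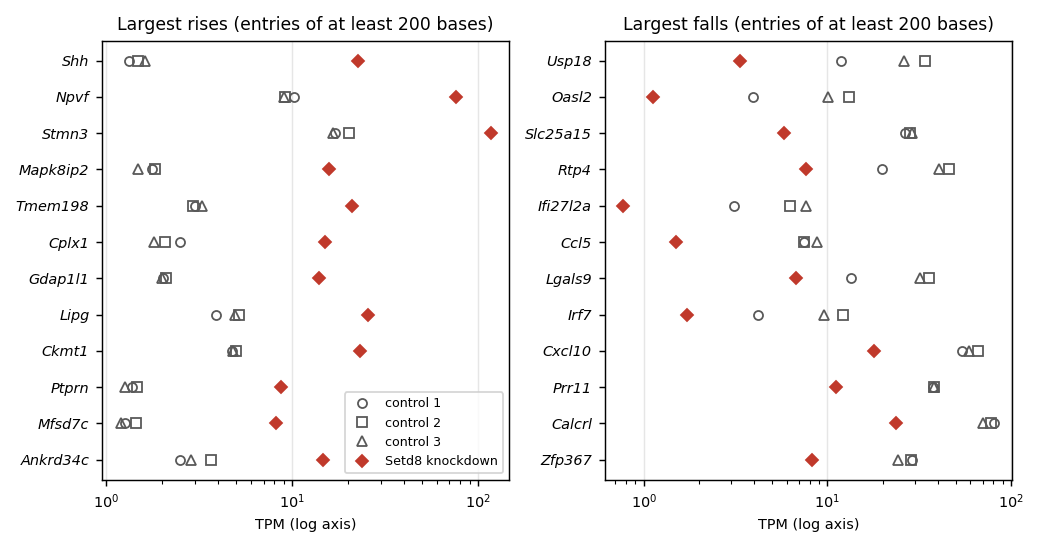
TPM on a log axis for the 12 largest rises (left) and the 12 largest falls (right) among called genes with at least 5 TPM in the higher group and at least 200 bases, without cell cycle and epigenetic genes. Open symbols are the 3 Ctrl libraries and the filled diamond is the KD library. It lies outside the Ctrl range for all 24 genes, which were picked for the size of their difference. Ctrl 1 is clearly below Ctrl 2 and Ctrl 3 for Usp18, Oasl2, Rtp4, Ifi27l2a, Lgals9 and Irf7. Ifi27l2a, at 0.7715 TPM in KD, passed the filter through the Ctrl libraries alone.

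Of 30 neuronal genes 17 were tested, and 8 of them (47.1%) rose and 1 fell, with a median log2 difference of 0.58. Stmn3 led them, followed by Scg3, a secretory granule protein, at 13.5, 14.5 and 12.0 TPM in Ctrl and 47.9 in KD. Crmp1, a cytoskeletal protein of growing axons, went from 17.8, 19.4 and 19.6 TPM to 38.4. Tubb3, the neuronal tubulin, was at 0.987, 1.28 and 1.49 TPM in Ctrl and 4.34 in KD and passed the filter only with the KD library. Without it 7 of 16 neuronal genes rose. For Stmn3, Scg3, Crmp1 and Tubb3 the KD library lay above every Ctrl library. Tubb3 reads may be shared with related tubulins. Dpysl3, a relative of Crmp1, fell from 105, 115 and 109 TPM to 71.6, and this call was lost without Ctrl 2 (log2 difference -0.58, below the fold limit). Gap43, the axonal growth protein with the highest Ctrl level, was at 781 to 815 TPM in Ctrl and 986 in KD and was not called. Dcx, a marker of migrating neurons, had no read in any library, and Rbfox3, the NeuN gene, was at 0.404 to 0.537 TPM in Ctrl and 1.11 in KD. Of 26 proneural and neuronal fate factors, which drive progenitors towards neurons, 10 were tested, 0 were called by limma, and the median log2 difference was -0.19. Tcf12 (189 to 199 TPM in Ctrl, 179 in KD) and Sox4 (156 to 161 and 196) had the highest levels.

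Of 66 tested ion channel and transmitter receptor genes, which make cells electrically excitable, 13 rose (19.7%) and 2 fell. Scn3b, an auxiliary subunit of voltage-gated sodium channels, rose from 6.28, 6.62 and 6.03 TPM to 27.4, a 4.34-fold difference. The potassium channel gene Kcnc4, at 0.814 to 1.24 TPM in Ctrl and 3.24 in KD, passed the filter only with the KD library, and of the 63 members at 1 TPM or more in all 4 libraries 12 rose and 2 fell. Cacng4, which escorts glutamate receptors, and Grm5, a metabotropic glutamate receptor, fell from 19.5 to 26.2 and 35.3 to 42.3 TPM in Ctrl to 10.2 and 22.8 in KD. Cacng5, a relative of Cacng4, had the highest Ctrl level, 113 to 124 TPM against 160 in KD, and was not called. The list holds 216 genes, so most of its members did not pass the filter.

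Axon guidance genes steer growing neurites and migrating cells. Of 43 tested, 12 rose (27.9%, 1 of which passed the filter only with the KD library) and 1 fell, and 40 of 43 were higher in KD. Of the 41 at 1 TPM or more in all 4 libraries 11 rose (26.8%) and 1 fell. The ephrins and their Eph receptors, which signal between touching cells, gave the 4 largest rises. Efna3 was at 19.4, 22.2 and 22.98 TPM in Ctrl and 50.2 in KD, and Efnb2 at 6.08, 6.98 and 7.03 in Ctrl and 15.4 in KD. Their receptors Epha2 and Epha4 rose 2.39-fold and 2.48-fold. The KD value exceeded the highest Ctrl library in all 4. Efna2 was the member that fell, from 11.7 to 12.7 TPM in Ctrl to 7.5. Plxnb2, a semaphorin receptor, had the highest Ctrl level (133 to 157 TPM, 201 in KD) and was not called.

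Interferon acts through transcription factors such as Irf9, and in its presence cells switch on antiviral genes such as Isg15, a ubiquitin-like protein, and Usp18, which removes Isg15 from proteins. Of 41 tested members 15 fell (36.6% against 8.41% of all genes) and 3 rose. Of the 39 at 1 TPM or more in all 4 libraries 13 fell (33.3%). The promoter of Isg15 is shown because its window holds the sequence that interferon-activated factors are known to bind. It is the 250 bases before the RefSeq start at chr4:156200819-156201068 (minus strand) in GRCm38.p6, and capitals mark matches to GAAANNGAA on either strand, 3 here, which overlap.
Isg15: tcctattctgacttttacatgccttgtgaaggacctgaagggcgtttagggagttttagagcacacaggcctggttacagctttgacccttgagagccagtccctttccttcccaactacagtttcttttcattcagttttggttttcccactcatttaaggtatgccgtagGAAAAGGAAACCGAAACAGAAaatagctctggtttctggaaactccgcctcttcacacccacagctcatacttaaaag
Of 32851 RefSeq windows of this length, 7.13% hold that motif, and of tested genes with a window 7.04% do. It is in 13 of the 31 interferon genes with a window, which are too few of the 41 tested for a share.

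Usp18 (chr6:121245906-121270917) had the largest fall in log2(TPM + 1) among called genes of at least 200 bases and 5 TPM outside the cell cycle and epigenetic lists. The ratio of TPM was larger for some lower genes, among them Oasl2 (8.07-fold, against 7.23-fold for Usp18). Usp18 was at 11.8, 34.1 and 26.2 TPM in Ctrl 1, Ctrl 2 and Ctrl 3 and at 3.33 in KD. Oasl2, an antiviral protein of the oligoadenylate synthetase family, was at 3.94, 13.1 and 10.1 TPM in Ctrl and 1.12 in KD. Rtp4 was at 19.9, 45.7 and 40.4 TPM in Ctrl and 7.64 in KD, and Irf7, the factor that amplifies the response, at 4.21, 12.1 and 9.61 in Ctrl and 1.71 in KD. Isg15 was at 26.4, 57.2 and 45.1 TPM in Ctrl and 16.6 in KD. In each of these genes KD was the lowest library, but Ctrl 1 lay closer to it than Ctrl 2 and Ctrl 3 did. Ctrl 1 was the lowest Ctrl library for 34 of the 41 interferon genes, compared with 3986 of all 12488 genes tested. The 15 called members had a median of 8.02 TPM in Ctrl 1, 12.7 in Ctrl 2, 10.6 in Ctrl 3 and 3.32 in KD. When Ctrl 1 was left out 23 members fell, when Ctrl 3 was left out 10 did, and with no filter on low values 1 did. Irf7 lost its call without Ctrl 3 (limma adjusted p = 0.0623). The part of the spread between Ctrl libraries in these calls was not tested.

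**Figure D3:**
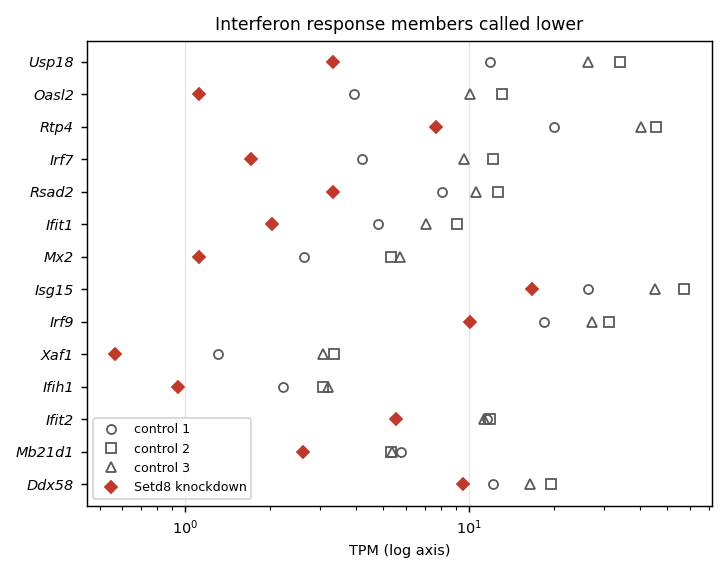
TPM on a log axis for 14 of the 15 interferon response genes called lower, ordered by the size of the fall. Open symbols are the 3 Ctrl libraries and the filled diamond is the KD library, which is the lowest for all 14, while Ctrl 1 (circle) is the lowest Ctrl library for 12 of them.

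The 3 interferon-list genes that rose belong to antigen presentation by MHC class I, which displays peptides on the cell surface. H2-T23 was at 4.3, 4.76 and 4.52 TPM in Ctrl and 15.8 in KD, and H2-D1 at 54.3, 58.0 and 61.4 in Ctrl and 119 in KD. Nlrc5, an activator of these genes, went from 1.06 to 1.55 TPM in Ctrl to 2.4, and this call was lost without Ctrl 1 (limma adjusted p = 0.059) and without Ctrl 3 (limma adjusted p = 0.0908). The H2 genes are near-identical to one another, and reads may be shared between them. B2m, the common light chain, was at 572 to 617 TPM in Ctrl and 696 in KD and was not called. In the list of secreted and inflammatory genes, which holds cytokines and proteases, 6 of 30 rose and 3 fell. The chemokine genes Ccl5 and Cxcl10 fell, from 7.46 to 8.8 TPM in Ctrl to 1.5 and from 54.1 to 66.4 to 17.9, and their Ctrl libraries did not overlap with KD. Vcam1, an adhesion receptor, fell from 15.4 to 20.8 TPM in Ctrl to 6.87. The metalloprotease genes Mmp2 and Mmp14, which cut matrix proteins, rose 3.22-fold and 2.26-fold, and the cytokine gene Lif and the chemokine gene Cxcl1 rose from 4.52 to 4.67 and 9.05 to 11.4 TPM to 8.91 and 18.2. Serpine2, a protease inhibitor and the highest of this list, rose from 2233 to 2378 TPM in Ctrl to 3508, a call lost without Ctrl 3 (log2 difference 0.56).

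By log2(TPM + 1), the fall of Slc25a15 was the largest outside the interferon genes and the short entries. This ranking covers called genes with at least 5 TPM in the higher group outside the cell cycle and epigenetic lists. By the ratio of TPM Ccl5 fell more (5.29-fold). Slc25a15 (chr8:22375550-22398621) carries ornithine into mitochondria, and it was at 26.3, 28.0 and 28.9 TPM in Ctrl and 5.77 in KD, so the Ctrl mean was 4.81-fold the KD value. The 12 largest falls by the rule also held Usp18, Oasl2 and 9 microRNA entries of 48 to 82 bases, Mir6922, Mir7069, Mir1191, Mir6970, Mir6988, Mir7067, Mir6907, Mir7002 and Mir7578. These 9 rest on 0 to 27 reads per library. Mir6922, Mir7069, Mir1191, Mir6970, Mir6988 and Mir7067 had 0 reads in KD and passed the filter through the Ctrl libraries alone. Among all 272 tested entries under 200 bases 18 rose and 61 fell, while over all genes tested 6.46% rose and 8.41% fell. The filter favours a fall in entries without reads in KD, so this count is no support for a fall of short entries. Entries this short leave few positions for a 50-base read. Among longer genes the falls also took in Calcrl, a receptor for vasoactive peptides, with a Ctrl mean 3.24-fold its KD value, and Polr2g, a subunit of RNA polymerase II, with a Ctrl mean 2.93-fold its KD value.

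Cells build cholesterol from acetyl-CoA through mevalonate and squalene, and the enzymes are switched on together by the factor Srebf2 when sterols run low. Of 26 tested genes of this list 11 fell (42.3%), none rose, and 24 of 26 had a lower level in KD, with a median log2 difference of -0.47. The promoter of Hmgcs1, which makes the mevalonate precursor and has the highest Ctrl level of the list, is shown because it holds a sterol response element and CCAAT boxes, of which the first is in no other of the 19 cholesterol synthesis genes with a window and the second is in 17 of the 19. It is the 250 bases before the start at chr13:119690101-119690350 (plus strand), and capitals mark 1 match to TCACNCCAC and 3 to CCAAT, on either strand and without overlap.
Hmgcs1: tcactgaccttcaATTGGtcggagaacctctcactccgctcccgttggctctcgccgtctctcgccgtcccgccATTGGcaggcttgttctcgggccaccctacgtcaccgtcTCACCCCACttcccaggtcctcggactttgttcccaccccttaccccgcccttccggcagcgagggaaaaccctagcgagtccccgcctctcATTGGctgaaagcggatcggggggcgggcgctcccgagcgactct
The share of all RefSeq windows of this length with these letters is 1.05% for TCACNCCAC and 33.9% for CCAAT. Among tested genes with a window, 0.89% of those called lower and 1.26% of all hold TCACNCCAC, and 49.0% and 40.9% hold CCAAT.

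Hmgcs1 was at 551, 518 and 515 TPM in Ctrl and 318 in KD, a log2 difference of -0.73 ± 0.06 (SE, limma adjusted p = 0.00018). Lss, which closes squalene into the sterol ring, was at 40.9, 46.6 and 46.9 TPM in Ctrl and 19.4 in KD. Fdps, which makes farnesyl diphosphate, was at 193, 182 and 193 TPM in Ctrl and 93.6 in KD. The KD library lay below every Ctrl library for all of these, and the Ctrl mean of Lss and Fdps was 2.31-fold and 2.02-fold the KD level. Hsd17b7 and Acat2 fell from 28.0 to 31.2 and 137 to 148 TPM in Ctrl to 15.6 and 78.5. Srebf2 itself was at 156 to 168 TPM in Ctrl and 149 in KD and was not called.

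In the list of lipid efflux and carriers 6 of 17 rose (35.3%) and 1 fell, and with no filter on low values 2 rose and 1 fell. Apoe, the main lipid carrier of the brain, was at 185, 203 and 196 TPM in Ctrl and 572 in KD, 2.94-fold the Ctrl mean. Abca1, the pump that loads it, was at 7.13, 9.98 and 8.53 TPM in Ctrl and 18.2 in KD, and Lcat, which esterifies the cholesterol of such particles, at 6.99, 6.95 and 5.49 in Ctrl and 20.6 in KD. Lrp1, an Apoe receptor, rose from 4.17, 6.84 and 6.31 TPM to 12.0. The Ctrl libraries did not reach the KD value in any of them, but the calls of Abca1, Lcat and Lrp1 were lost with no filter on low values. Soat1, which esterifies cholesterol for storage inside the cell, fell from 23.3, 24.8 and 24.3 TPM to 9.1. In fatty acid synthesis 5 of 17 genes fell (29.4%) and none rose. Elovl6, an elongase, fell from 56.4, 51.9 and 48.0 TPM to 18.7, Acss2, which makes acetyl-CoA from acetate, from 31.6, 36.6 and 35.8 to 12.9, and Acsl4, which activates arachidonic acid, from 22.87, 22.99 and 20.5 to 8.48. Fads2, a desaturase, fell from 353 to 402 TPM in Ctrl to 233. Scd2, another desaturase and the highest of the list, was at 1421 to 1448 TPM in Ctrl and 1261 in KD. In fatty acid oxidation 1 of 22 genes was called, or 2 without Ctrl 2 (Cpt1c, 68.5 to 70.7 TPM in Ctrl and 118 in KD), and Acadl, the highest, was at 823 to 848 and 891.

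**Figure D4:**
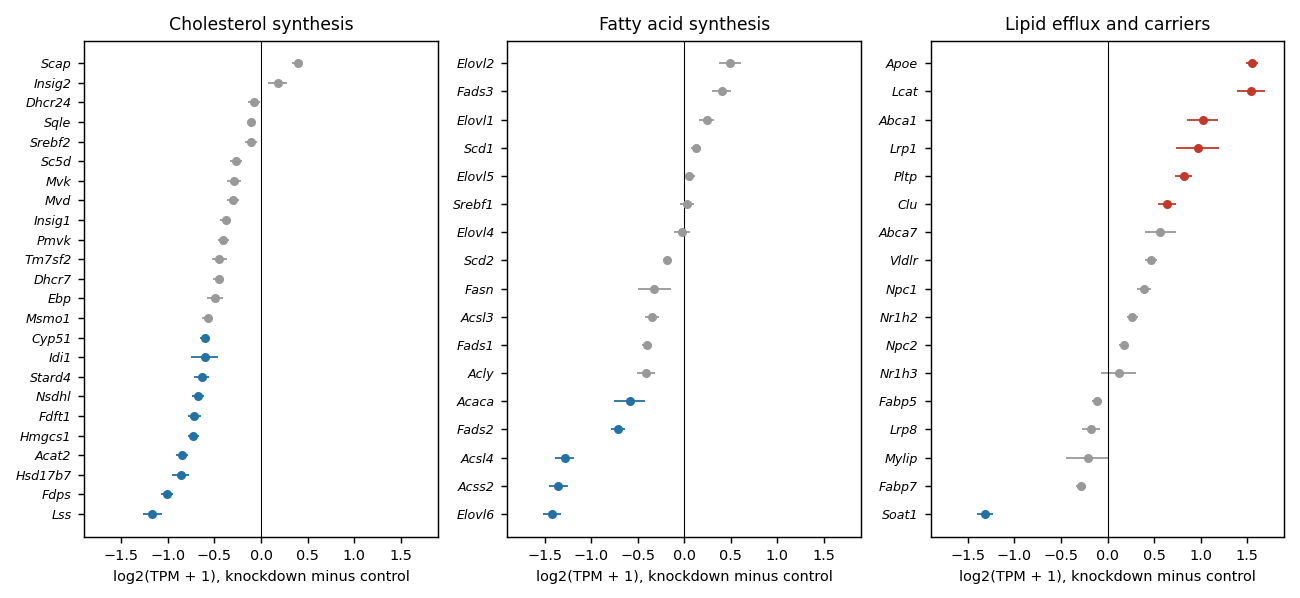
Difference in log2(TPM + 1) between the KD library and the Ctrl mean, with the standard error from limma as a bar, for tested genes of cholesterol synthesis (24 of 26 drawn), fatty acid synthesis (17) and lipid efflux and carriers (17). Red points rose, blue points fell and grey points were not called, and 22 of the 24 cholesterol synthesis genes drawn lie left of the line at 0.

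Genes of the circadian clock were called in both directions. In the clock, Clock and Arntl switch on genes through the E-box sequence, among them their own repressors and the output factors Dbp and Tef. Of 18 tested members 5 fell (27.8%) and 2 rose (11.1%). The promoter of Tef, the highest clock gene in Ctrl, is shown for its E-box. It is the 250 bases before the start at chr15:81802423-81802672 (plus strand), and capitals mark the 1 match to CACGTG, a motif found in 6.02% of all RefSeq windows of this length, in 10.2% of tested genes with a window and in 5 of the 16 clock genes with one.
Tef: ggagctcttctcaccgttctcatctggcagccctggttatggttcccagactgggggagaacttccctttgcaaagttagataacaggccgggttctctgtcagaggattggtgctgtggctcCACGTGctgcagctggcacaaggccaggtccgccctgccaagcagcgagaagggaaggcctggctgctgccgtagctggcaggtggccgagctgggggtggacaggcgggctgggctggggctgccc
Tef was at 64.5, 63.6 and 63.0 TPM in Ctrl and 23.2 in KD. Dbp was at 36.5, 35.2 and 34.9 TPM in Ctrl and 14.9 in KD. Nr1d2, a repressor of Arntl, was at 21.5, 23.7 and 20.4 TPM in Ctrl and 7.55 in KD. For these 3 genes the Ctrl mean was 2.74-fold, 2.39-fold and 2.9-fold the KD level. Clock fell from 16.9 to 18.6 TPM in Ctrl to 6.93, whereas its partner Arntl rose from 28.0, 28.4 and 29.9 TPM to 55.8. Bhlhe41, an E-box repressor, rose from 3.4 to 3.88 TPM to 7.35. The fifth member that fell was Ciart (4.79, 4.42 and 4.19 TPM in Ctrl, 2.28 in KD), named after its values were seen.

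Targets of p53, the factor that halts damaged cells, rose in 13 of 38 tested genes (34.2%) and fell in 1. Bbc3, which encodes the cell death protein PUMA, was at 38.3, 35.4 and 37.3 TPM in Ctrl and 90.8 in KD, a 2.46-fold difference. Tnfrsf10b, a death receptor, was at 5.34, 5.68 and 5.55 TPM in Ctrl and 13.5 in KD. Epha2 was also on this list, and Ccng1, a cyclin G induced by p53, rose from 524, 540 and 471 TPM to 976. Each of these was above all Ctrl libraries. Ckap2, a spindle protein, was the member that fell, from 273 to 301 TPM in Ctrl to 191, and this call was lost without Ctrl 2 (log2 difference -0.56). Rps27l, the highest p53 target in Ctrl, was at 1160 to 1233 TPM and 1140 in KD and was not called.

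Epidermal and fibroblast growth factors keep these cells dividing. Of 39 tested members of the EGF and FGF list 11 rose (28.2%) and none fell, and with no filter on low values 4 rose. Among the ligands Areg was at 14.7, 13.0 and 12.0 TPM in Ctrl and 28.9 in KD, and Tgfa at 4.29, 4.68 and 3.42 in Ctrl and 8.58 in KD. Both were above their Ctrl range, and both calls were lost with no filter on low values. Nrg1, at 1.29, 1.15 and 0.945 TPM in Ctrl and 4.58 in KD, passed the filter only with the KD library, and without such members 10 of 37 rose. Of the transcriptional targets Ier3 rose 2.11-fold, with 72.4 to 73.5 TPM in Ctrl and 154 in KD. Dusp6, which switches the kinase ERK off and has the highest level, was at 378 to 396 TPM in Ctrl and 522 in KD, under the fold limit. The receptor Egfr was at 88.9 to 100.3 TPM in Ctrl and 84.9 in KD.

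In the other pathways of stem cell control the calls were few and mixed. In Notch signalling, through which neighbouring progenitors hold each other undifferentiated, 4 of 22 rose (18.2%) and 2 fell (9.09%). Of the ligands, Jag1 rose from 13.0 to 15.4 TPM in Ctrl to 25.6 and Dner from 63.5 to 70.3 to 113, and of the receptors, Notch2 rose from 5.74 to 6.85 to 11.3. Notch3 was at 17.9 to 22.6 TPM in Ctrl and 33.4 in KD, a call lost without Ctrl 1 (log2 difference 0.55). The target Hes5 fell from 28.1, 28.2 and 24.0 TPM to 12.6, and Adam10, a protease that cuts the receptors, from 164 to 169 to 89.6. Hes6, the highest by Ctrl mean, was at 244 to 251 TPM in Ctrl and 222 in KD. In the BMP and TGF-beta list, of growth factors with roles in quiescence and glial fate, 5 of 29 rose (17.2%) and 3 fell (10.3%). The target Id4 rose from 3.58 to 4.57 TPM in Ctrl to 8.95, the antagonist Fst from 7.1 to 7.8 to 14.9, the ligand Tgfb1 from 2.23 to 2.6 to 4.93, and the receptor Tgfbr2 from 45.0 to 52.9 to 81.0. The ligand gene Inhbb, the receptor Tgfbr1 and the mediator Smad5 fell, from 13.9 to 14.4, 18.6 to 21.9 and 78.3 to 86.2 TPM in Ctrl to 7.91, 11.8 and 51.7. Id3, the highest of this list, was at 297 to 351 TPM in Ctrl and 345 in KD. In Wnt signalling 3 of 38 rose (7.89%) and 2 fell (5.26%), close to the shares of all genes. Apc, part of the complex that degrades beta-catenin, fell from 60.3 to 67.8 TPM in Ctrl to 29.2, and the receptor Lgr5, which passed the filter through Ctrl alone, was at 1.75 to 2.31 in Ctrl and 0.77 in KD. Rnf43, which removes Wnt receptors, and the receptor Fzd1 rose from 4.55 to 5.05 and 45.4 to 49.7 TPM to 9.39 and 79.2. Ctnnb1, the beta-catenin gene, was at 834 to 912 TPM in Ctrl and 777 in KD.

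In the list of IGF, insulin and mTOR 3 of 29 rose (10.3%, 1 of which, Igf2, passed the filter only with the KD library) and 2 fell (6.9%). Of the 28 at 1 TPM or more in all 4 libraries 2 rose and 2 fell (7.14% each), beside 6.38% and 8.08% of all such genes. Igfbp3, which binds insulin-like growth factors outside the cell, rose from 2166, 2118 and 2122 TPM to 3755, and the receptor Igf2r from 12.1, 14.6 and 16.5 to 26.1. Foxo4, a transcription factor held back by insulin, and Pik3r1, a kinase subunit, fell from 25.1 to 27.7 and 62.4 to 71.6 TPM in Ctrl to 13.3 and 35.5. Igfbp2 was higher than Igfbp3 in level, at 3894 to 4106 TPM in Ctrl and 4403 in KD, and was not called. The list of YAP, the mechanical growth regulator, holds its partners and controls beside its targets. Of its 14 tested genes 5 rose (35.7%) and 1 fell. Cyr61, a secreted matrix protein, was at 9.78, 8.14 and 9.04 TPM in Ctrl and 21.7 in KD. Lats2 and Ajuba, both part of the control of YAP, and Amotl2 rose from 15.8 to 16.1, 16.5 to 18.0 and 10.7 to 11.6 TPM to 30.3, 30.4 and 19.4. Tead1, a DNA-binding partner of YAP, fell from 22.2 to 24.7 TPM to 13.7.

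Lysosomal genes rose in 8 of 56 tested members (14.3%), none fell, and 49 of 56 were higher in KD. Lysosomes break down proteins, lipids and sugars, and many of their genes carry an E-box that the factors Tfeb and Mitf bind. The promoter of Ctsd, a major lysosomal protease, is shown for it. It is the 250 bases before the start at chr7:142387828-142388077 (minus strand), and capitals mark 2 matches to CACGTG, which 13 of the 44 lysosomal genes with a window hold, beside 10.2% of all tested genes with one.
Ctsd: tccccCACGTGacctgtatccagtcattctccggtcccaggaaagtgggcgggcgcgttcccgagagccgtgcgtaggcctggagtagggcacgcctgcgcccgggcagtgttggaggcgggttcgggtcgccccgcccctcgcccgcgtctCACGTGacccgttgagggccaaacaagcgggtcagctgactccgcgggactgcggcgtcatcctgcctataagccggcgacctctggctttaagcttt
Ctsd was at 812, 829 and 853 TPM in Ctrl and 1360 in KD. Grn, which encodes progranulin, was at 134, 131 and 127 TPM in Ctrl and 231 in KD, and Neu1, a sialidase, at 28.9, 26.4 and 28.7 in Ctrl and 46.0 in KD. Mitf was the largest rise of the list, from 1.9, 1.98 and 1.62 TPM to 5.23. The membrane protein gene Lamp1 had the highest Ctrl level and rose from 918 to 999 TPM to 1485. All 5 genes were above their Ctrl range. In autophagy, which delivers cargo to lysosomes, 2 of 24 rose (8.33%), or 1 without Ctrl 1, and 1 fell (4.17%). Gabarapl1, which coats autophagosomes, rose from 154 to 160 TPM in Ctrl to 258, and Wipi2 fell from 44.7 to 47.8 to 28.2.

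Nucleotide synthesis enzymes fell in 10 of 25 tested genes (40.0%), none rose, and 23 of 25 were lower in KD. Tk1, thymidine kinase, was at 170, 174 and 179 TPM in Ctrl and 75.3 in KD, Rrm1, the large subunit of ribonucleotide reductase, at 223, 266 and 254 in Ctrl and 115 in KD, and Tyms, thymidylate synthase, at 47.0, 46.2 and 47.8 in Ctrl and 22.7 in KD. Rrm2, the small subunit, fell from 358 to 382 TPM to 204. Tk1, Rrm1, Rrm2 and Tyms are used most in S phase, and the cell cycle genes fell in the same library, whose part in these falls was not tested. Ribosome biogenesis fell in 6 of 36 genes (16.7%), with Dkc1, a subunit of the RNA-modifying particle, at 85.4, 88.9 and 86.5 TPM in Ctrl and 41.6 in KD. Nop56 and Nop58, nucleolar proteins, fell from 116 to 134 and 185 to 205 TPM to 74.3 and 119, and Nhp2, the highest, was at 404 to 446 in Ctrl and 345 in KD. The 20 tRNA synthetases were all lower in KD (median log2 difference -0.30) but none passed the fold limit, with Gars at 275 to 294 TPM in Ctrl and 229 in KD and Kars at 258 to 280 and 199. Proteasome subunits were lower in 34 of 37, again with none called by limma, and without Ctrl 1 limma called 3 lower in each of these 2 lists. Psmb4 was at 829 to 876 TPM in Ctrl and 827 in KD. RNA splicing factors fell in 8 of 31 (25.8%) and none rose. Srsf2, a splicing activator, was at 553, 543 and 532 TPM in Ctrl and 331 in KD, and Srsf7 and Srsf3, of the same family, fell from 202 to 215 and 157 to 172 to 130 and 103.

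Mitochondrial and ribosomal gene lists gave few calls. Oxidative phosphorylation had 2 rises and 1 fall in 73 genes (2.74% and 1.37%), the mitochondrial ribosome 0 (1 without Ctrl 2) and 5 in 73 (6.85% called lower, with 65 of 73 below Ctrl and a median log2 difference of -0.17), the TCA cycle 0 and 1 in 22, and glycolysis 2 and 0 in 22. Mrpl34, of the mitochondrial ribosome, fell from 311, 282 and 296 TPM to 106, and Dld, a dehydrogenase subunit of the TCA cycle, from 235 to 253 to 138. Cox8b, a cytochrome oxidase subunit, rose from 4.68 to 6.07 TPM to 13.4, and the enolase gene Eno2 and the glucose transporter gene Slc2a3 from 7.65 to 8.96 and 7.43 to 8.64 to 16.3 and 14.3. Pkm, the highest glycolysis gene by Ctrl mean, was at 1240 to 1436 TPM in Ctrl and 1089 in KD. Atp5b and Mdh2 were at 3815 to 3951 and 1207 to 1238 TPM in Ctrl and 3470 and 1244 in KD. Of the cytosolic ribosomal proteins 1 of 77 rose and 5 fell (4 of the 76 at 1 TPM or more in all 4 libraries), or 3 without Ctrl 3, and 0 rose without Ctrl 1 and 2 without Ctrl 2 or Ctrl 3. These genes have many near-identical copies in the genome, and how reads shared between copies were assigned is not stated for these data. Gapdh, a glycolysis gene that also has many copies, stood at 1.89 to 3.02 TPM in every library, which is low for this gene.

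**Figure D5:**
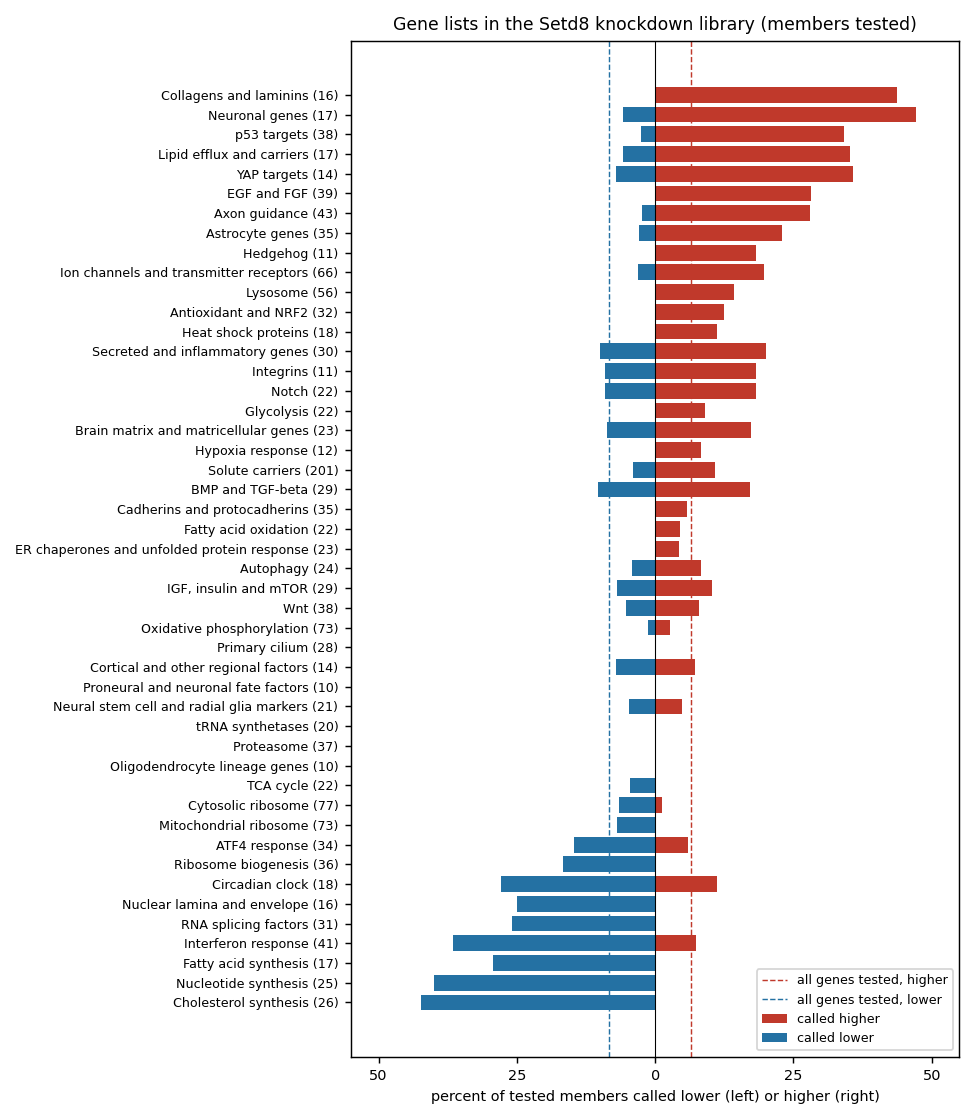
For each gene list with at least 10 tested members (the number in brackets), the bar to the right is the percentage of tested members called higher in the KD library and the bar to the left the percentage called lower. Dashed lines mark the same percentages over all genes tested, 6.46% and 8.41%. Bars and lines include members that passed the filter only with the KD library or through the Ctrl libraries alone. The list drawn as YAP targets also holds partners and controls of YAP.

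Stress lists had single large members. Of 18 heat shock genes 2 rose, Cryab, a small heat shock protein of the lens and glia, from 106, 109 and 106 TPM to 313, and its partner Hspb8 from 22.2, 25.1 and 25.4 to 55.9. Hsp90ab1, the highest, was at 2074 to 2250 TPM in Ctrl and 2052 in KD. Of 32 antioxidant genes 4 rose (12.5%), led by Hmox1, which degrades haem, from 179, 188 and 187 TPM to 452. Srxn1, which repairs oxidised enzymes, and the metal-binding Mt3 rose from 41.4 to 43.3 and 1428 to 1539 TPM to 71.6 and 2348. In the ATF4 response to amino acid shortage 2 of 34 rose (5.88%) and 5 fell (14.7%), or 3 without Ctrl 3. Sesn2 and Ddit4, inhibitors of mTOR, rose from 97.1 to 106 and 137 to 156 TPM to 171.2 and 243.2, while Slc7a11, a cystine importer, fell from 9.04, 9.64 and 9.3 to 4.05 and Slc1a5, a glutamine importer, from 15.7 to 18.7 to 8.71. Psat1, a serine synthesis enzyme and the highest of the list, was at 663 to 698 TPM in Ctrl and 535 in KD. Of 23 genes of the unfolded protein response 1 was called (Syvn1, 29.0 to 29.6 TPM in Ctrl and 46.0 in KD).

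Of 35 tested astrocyte genes 8 rose (22.9%) and 1 fell, yet the defining marker Gfap was low and not called, with 3.53, 3.3 and 3.38 TPM in Ctrl and 2.84 in KD, and 11 of the 35 were lower in KD. Aqp4, the water channel of astrocytes, did not pass the filter, with 0.713, 0.52 and 0.644 TPM in Ctrl and 0.0894 in KD, on 24 to 32 reads in Ctrl and 4 in KD. Besides Apoe and Mt3, Hepacam, an adhesion protein of astrocytes, rose from 40.7, 47.6 and 38.7 TPM to 82.7, and Sparc, a matrix regulator, from 544, 531 and 568 to 950. Its relative Sparcl1 fell from 241, 305 and 267 TPM to 151. Of 10 tested oligodendrocyte lineage genes 0 were called by limma. Collagens and laminins, the proteins of the basement membrane, rose in 7 of 16 tested genes (43.8%) and none fell. Lamb2 rose from 20.2, 25.3 and 25.1 TPM to 44.8, Col4a5 from 15.8, 20.2 and 20.1 to 33.0, and Col4a6 from 1.98 to 2.62 to 4.66. Col22a1 was at 0.74 to 1.2 TPM in Ctrl and 4.24 in KD and passed the filter only with the KD library, and without it 6 of 15 rose. Lamc1, the highest, rose from 92.9, 110 and 123 TPM to 174, a call lost without Ctrl 1 (log2 difference 0.58). With no filter on low values 0 of these 7 genes were called by limma. Of 23 genes of the brain matrix 4 rose (17.4%) and 2 fell (8.7%). Gpc4, a heparan sulfate proteoglycan secreted by astrocytes, went from 42.4, 40.9 and 40.6 TPM to 112, and Gpc1 and Bcan rose from 127 to 133 and 302 to 320 to 206 and 483. Of 11 tested integrins 2 rose and 1 fell. Itgb5, which pairs with an alpha subunit to bind the matrix, rose from 25.5 to 28.7 TPM to 56.1 and Itgb8 fell from 46.1 to 57.7 to 28.5. Itga3, the other called higher, was at 1.26, 1.31 and 0.987 TPM in Ctrl and 2.52 in KD and passed the filter only with the KD library.

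The nuclear lamina is the protein mesh under the nuclear envelope. Of 16 tested genes of the lamina and the envelope 4 fell (25.0%). Lmnb1, which encodes lamin B1, was at 255, 259 and 271 TPM in Ctrl and 137 in KD. Nrm, a membrane protein of the envelope, was at 62.4, 62.4 and 62.9 TPM in Ctrl and 30.9 in KD, and Tmpo, a lamin-binding protein, at 121, 121 and 116 in Ctrl and 63.4 in KD. The Ctrl libraries were close together for all 3 genes and did not overlap with KD. Tmem97, a sterol-regulated membrane protein, fell from 71.8 to 81.7 TPM to 44.0, and Banf1, the highest, was at 520 to 528 in Ctrl and 375 in KD. No primary cilium gene was called by limma (28 tested), with Ift27 at 109 to 132 TPM in Ctrl and 129 in KD.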

How the data were processed

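Messenger RNA with a poly(A) tail was sequenced as 50-base single-end reads from strand-marked libraries of cultured NSCs. The authors trimmed the reads with Trimmomatic, aligned them with STAR to mm10, and deposited TPM values per gene. An addition of 0.01 reads to each gene was inferred from the values and is not stated in the sources used here. The study lists RSEM among its software without saying that it made these values, and the annotation is not given in the sources used here. TPM multiplied by gene length and scaled per library gave whole reads for 99.96% to 99.97% of values (tolerance 0.1).

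Genes with at least 1 TPM in at least 3 of the 4 libraries were tested with limma 3.58.1 (R 4.3.3; eBayes with trend) on log2(TPM + 1), in which fold changes of low genes are understated. Only the Ctrl libraries give residual degrees of freedom, 2 before and 7.13 after moderation. The authors compared 3 libraries per group; 1 KD library with values is analysed here. A gene on in KD alone could not pass the filter. Simulated data with 3 Ctrl libraries and 1 KD library for the 12488 genes gave calls for 28.4% of genes changed 1.5-fold, 95.5% of those changed 2-fold and 0.22% of unchanged genes. All simulated libraries had 1 common spread taken from the Ctrl libraries, and only genes with many reads were changed. The 0.22% therefore cannot speak for a larger spread in KD or for genes whose Ctrl libraries differ more. A 1.5-fold change lies at the fold limit itself.

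Named genes were Setd8, the 12 largest rises and falls with at least 5 TPM in the higher group outside the cell cycle and epigenetic lists, up to 4 called members per list and direction, and the highest member of each list. The highest member of a list is the one with the highest Ctrl mean. Members and lists were chosen with earlier results of these data known. RefSeq promoter windows matched 9775 of the 12488 genes, and under 80% of the tested interferon, cholesterol synthesis and lysosome genes, so motif counts per list are given without shares. Alternatives were another pseudocount, filter, centring, scale, eBayes setting, fold limit and grouping, leaving out each Ctrl library and, added after seeing the data, leaving out genes under 200 bases. Single-cell files and bulk chromatin samples of the series were not used here, and some members counted in the lists are not reported here by name. Python 3.11.15, pandas 2.3.3 and numpy 2.4.6 were used.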

Additional observations from a re-analysis of the deposited data

How the results depend on the processing

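The log2 difference of Setd8 lay between -2.01 and -1.95 under each alternative for which it was computed. It was not computed for the grouping by the labels or for the leaving out of short entries. With no filter on low values, which takes 24062 genes into the test, limma called 410 genes higher and 565 lower, and 79 and 58 members of the pathway lists in place of 162 and 111. Without a minimum fold 2581 genes rose and 2832 fell, and at 2-fold 174 and 304 did. Grouping by the labels gave 0 and 0 genes in limma, with 87 at an unadjusted p under 0.05. Leaving out 1 Ctrl library gave 800 to 861 genes higher and 1033 to 1082 lower, and 161 to 169 and 104 to 125 list members. Of 261 named genes besides Setd8, 97 lost their call under at least 1 of the alternatives checked gene by gene. The 261 include genes that were not called in the main test and had no call to lose. Of these 97 genes, 95 lost it with no filter and 17 when a Ctrl library was left out. No named gene changed direction under an alternative checked while it was called there or in the main test. Genes without a call in either were not counted as changed, whatever their sign. The check gene by gene did not cover the grouping by the labels, the other fold limits or the leaving out of short entries. On log2 of recovered reads scaled by library total 1004 genes rose and 1091 fell, with the median of all genes at 0.0196. No paired analysis was possible because the KD group has 1 library with values. With 1 KD library the test cannot see the spread between KD cultures. In data simulated with a common spread from Ctrl, a true 1.5-fold difference, at the fold limit, was called in 28.4% of genes. It passed the adjusted p with the right sign in 58.2%.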

Other observations

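Solute carriers move nutrients and ions across membranes. Of 201 tested, 22 rose (10.9%) and 8 fell (3.98%), beside 6.46% and 8.41% of all genes. Slc25a34, a mitochondrial carrier, was at 2.07, 2.67 and 2.0 TPM in Ctrl and 9.21 in KD, and Slc25a42, which carries coenzyme A into mitochondria, at 10.4, 9.37 and 7.47 in Ctrl and 19.3 in KD. The urea transporter gene Slc14a2 rose from 5.94, 5.9 and 6.58 TPM to 13.6. The KD library was above every Ctrl library in these 3 genes. The zinc transporter gene Slc39a12, at 1.31, 1.85 and 0.961 TPM in Ctrl and 3.94 in KD, passed the filter only with the KD library, and of the 197 carriers at 1 TPM or more in all 4 libraries 20 rose and 8 fell. Slc26a2, a sulfate transporter, fell from 3.87, 5.55 and 4.63 TPM to 1.79. Slc25a4, the ATP carrier of mitochondria with the highest Ctrl level, was at 1885 to 1977 TPM in Ctrl and 2394 in KD and was not called. Of 35 cadherins and protocadherins 2 rose (1 without Ctrl 1, 3 without Ctrl 3 and 6 on recovered reads scaled by library total). They were Fat1 (15.2 to 21.9 TPM in Ctrl, 31.6 in KD, a call lost without Ctrl 1) and Pcdhb17 (6.09 to 7.04 in Ctrl, 11.1 in KD). Of 12 hypoxia genes 1 rose, the kinase gene Pdk1, from 9.05 to 9.96 TPM to 16.2. Of 5 tested ependymal genes 0 were called by limma, and Foxj1, which drives the making of motile cilia, was at 45.8 to 55.7 TPM in Ctrl and 62.1 in KD.

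Of the 11574 genes that did not pass the filter, 373 had at least 1 TPM in the KD library, 316 of them of at least 200 bases. These genes were not tested. In each of the 373 at most 1 Ctrl library reached 1 TPM, so a KD value above Ctrl is largely built into this group. The 5 with the highest KD level were the microRNA entries Mir6968, Mir325, Mir6997, Mir467c and Mir6921. The next was Scg2, which encodes the secretory granule protein secretogranin II, at 0.684, 0.399 and 0.799 TPM in Ctrl and 6.48 in KD. It stands outside the naming rule and was picked after its values were seen, as was Ap3b2, a neuronal vesicle coat subunit, at 0.417, 0.203 and 0.583 TPM in Ctrl and 4.17 in KD. Snap25, a synaptic fusion protein picked in the same way, was at 0.406, 0.296 and 0.157 TPM in Ctrl and 1.98 in KD. Other genes of this group with a higher KD level than Snap25 are not named.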
